A study of Mus musculus with 11 samples.

Results

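The region described here is a stretch of mouse chromosome 16 around Hes1, at chr16:29690000-30130000 on build mm9, 440 kb long. It was chosen on the peak lengths of the day 2 lists of these data, in which it was one of the longest called stretches, so its day 2 lengths are given as a description and support nothing further. The 6 lists analysed hold autosomal peaks only, so peaks on the X chromosome enter no count, rank or share here. Of their 19818 peaks, 12 overlapped the region by at least 1 bp. These were 1 and 3 peaks in replicates 1 and 2 of day 2, 5 and 3 in replicates 1 and 2 of day 4, and 0 in female and 0 in male fibroblasts. The position of Hes1, near 30.065 Mb, is the one given in the definition of the region and was not read from an annotation of mm9.

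The lists come from RNA antisense purification of Xist followed by DNA sequencing (RAP-seq), in which biotinylated probes capture the RNA from crosslinked chromatin and the DNA held with it is sequenced. Female mouse epiblast-like cells (EpiLCs) were derived from embryonic stem cells kept in LIF and 2 inhibitors, CHIR99021 and PD0325901, and then moved to bFGF and Activin A. They were sampled on day 2 (D2) and on day 4 (D4), with 2 libraries each. Embryonic fibroblasts (MEFs) gave 1 female and 1 male library. No other agent is named for any group in the sources used here. Strain, genotype, clone and embryo age are not given in the sources used here, and the labels describe the MEFs only as somatic. Whether the EpiLC replicates were separate cultures is not stated either, and the spread between them can therefore be technical. Peak lists on DNA carry no expression, so neither the cell types nor Xist itself could be checked in them. The 5 inputs were not analysed here.

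Xist is a long noncoding RNA that spreads over an X chromosome of female mammals and silences most of its genes. Male cells normally do not express it, so the male list serves as a background for fibroblasts. There was no such background for EpiLCs. Hes1 encodes a basic helix-loop-helix repressor and is a classical target of Notch signalling. Its level oscillates through repression of its own promoter, and in embryonic stem cells its varying level goes with the timing and direction of differentiation. In the RefSeq gene order of GRCm38.p6, which is another build and was used for names only, Hes1 is the 1 protein-coding gene between Opa1, a GTPase of mitochondrial fusion, and Cpn2, a subunit of carboxypeptidase N. Between these neighbours lie also 12 long noncoding RNA genes, 8 on the Opa1 side of Hes1 and 4 on the Cpn2 side, and 2 pseudogenes. Which of them lie under a peak was not determined, because the builds differ.

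At D2 the region was called almost from end to end. In replicate 1 a single peak ran over chr16:29673351-30287914, a length of 615 kb, and covered the whole window, passing both of its borders. Its fold enrichment, a linear ratio over background as the authors' peak caller gave it, was 2.99, with a −log10 p of 4.53 and a −log10 q of 2.93. In replicate 2 the window held 3 peaks. The long one was chr16:29708122-30108401 (400.3 kb, fold enrichment 3.29, −log10 q 2.87). A shorter one lay on the Opa1 side at chr16:29678394-29698430 (20.0 kb, fold enrichment 3.02), across a gap of 9.69 kb. Another followed at chr16:30113068-30131978 (18.9 kb, fold enrichment 2.83), across a gap of 4.67 kb. The shortest gap between any neighbouring peaks in that list was 4001 bp, so the second of these breaks was close to the shortest that the list contains. The Hes1 position lay inside the long peak of both replicates.

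The D2 stretch went on past the Cpn2-side border of the window. Beyond it, replicate 2 held a further peak at chr16:30137196-30282735 (146 kb, fold enrichment 2.93), which began 7.20 kb after the window's last base. Over the 615 kb of the replicate 1 peak, replicate 2 called 5 peaks that covered 95.3%. With that further peak counted, both replicates called DNA, with short gaps, from 387 kb below the Hes1 position to 218 kb above it. On the Opa1 side the nearest separate peaks ended 22.0 kb from the window in replicate 1 and 15.9 kb from it in replicate 2. Farther out on this side calls were sparse. The 1 Mb below the window was covered to 3.16% and 2.56% in replicates 1 and 2. These shares include the ends of the peaks that cross the window's lower border. The 1 Mb above it was covered to 21.6% and 20.3%, much of it by the continuing stretch.

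**Figure D1:**
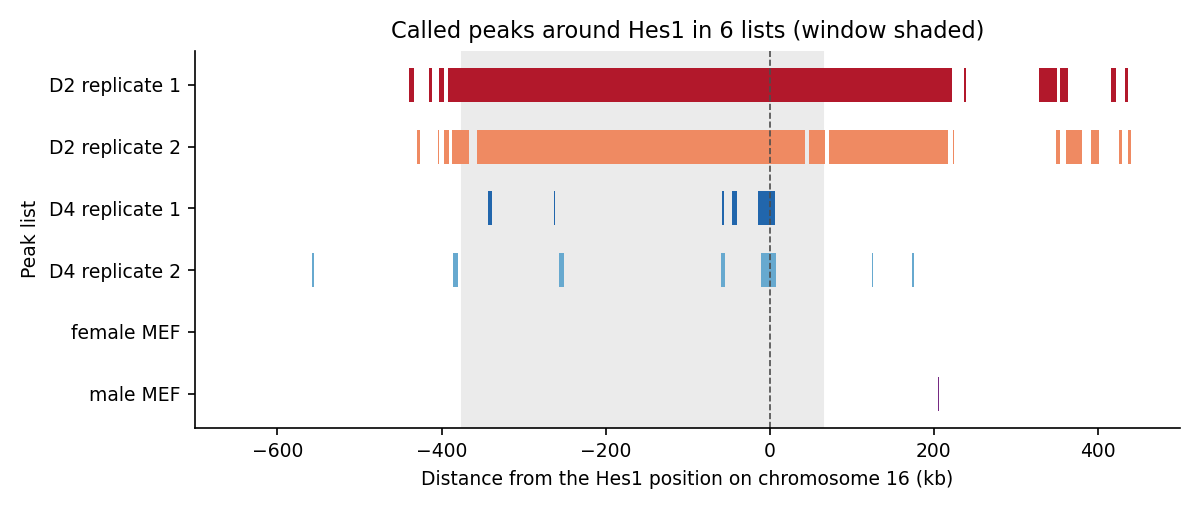
Peaks of the 6 lists on chromosome 16 as bars, against the distance from the Hes1 position in kb (dashed line); the window is shaded, 1 row is 1 list, and peaks under 1.5 kb are drawn 1.5 kb wide. The D2 bars fill the window, the D4 lists keep 5 and 3 short bars with the widest at Hes1, and the MEF rows are empty inside the window.

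At D4 the same region held only short peaks, and the longest of them in each list lay on the Hes1 position. In replicate 1 this was chr16:30051328-30071203, 19.9 kb long, with a fold enrichment of 3.54 and a −log10 q of 3.20. In replicate 2 it was chr16:30054801-30072421, 17.6 kb long, with a fold enrichment of 3.33 and a −log10 q of 2.45. Their starts differed by 3.47 kb and their ends by 1.22 kb. The segment called in both was chr16:30054801-30071203 (16.4 kb), from 10.2 kb below the Hes1 position to 6.20 kb above it. In both D4 lists this peak was the longest of chromosome 16, first of 47 and first of 32.

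The Hes1 peak was also long and strong for a D4 peak. Median peak length was 2.88 and 2.76 kb in D4 replicates 1 and 2, so it was 6.90 and 6.38 times as long as the median, and it ranked 39 of 1553 and 36 of 1148 by length. By fold enrichment it ranked 20 of 1553 in replicate 1 and 26 of 1148 in replicate 2, where the list medians were 2.82 and 2.85. On chromosome 16 it ranked first by fold enrichment in replicate 1 and second in replicate 2. On this chromosome the longest D4 peak thus lay on the longest D2 peak in both replicates. On the other 18 autosomes that was so on 4 for replicate 1 and on 3 for replicate 2. The region was chosen on its D2 length, with earlier results of these data known, so this comparison is a description only.

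A second, smaller site was shared by both D4 lists, between Hes1 and the Opa1 side. It was called at chr16:30006440-30009950 in replicate 1 (3.51 kb) and at chr16:30006187-30010617 in replicate 2 (4.43 kb), ending 55.1 and 54.4 kb below the Hes1 position. The 2 libraries placed it at nearly the same coordinates but at opposite ends of their lists. Its fold enrichment of 2.56 ranked 1544 of 1553 in replicate 1, and its fold enrichment of 3.49 ranked 18 of 1148 in replicate 2, where it was the strongest peak of chromosome 16. Both libraries gave it the same place and a very different standing.

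The other 4 D4 peaks of the window were each called in 1 library. Replicate 1 had chr16:29722066-29725956 (3.89 kb, fold enrichment 2.60), chr16:29801991-29802886 (0.896 kb, 3.09) and chr16:30019036-30025235 (6.20 kb, 2.67). Replicate 2 had chr16:29808297-29814021 (5.73 kb, 2.80). That peak and the 0.896-kb peak of replicate 1 lay 5.41 kb apart. All 8 D4 peaks of the window lay wholly within the segments called in both D2 lists, which made up 96.7% of the window and so left little room elsewhere. None of them began above the Hes1 position.

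Most of the D4 covered length lay toward Hes1, while the D2 calls filled the window, as its choice on D2 length largely fixed. The stretch from 100 kb below the Hes1 position to the window's last base makes up 165 kb of the 440 kb. It held 37.5% and 37.7% of the covered length in D2 replicates 1 and 2, and 86.1% and 79.4% in D4 replicates 1 and 2. Because the window was called almost whole at D2, the D2 shares could only lie near the stretch's own share of the window. The Hes1 peak alone made up 57.8% and 63.4% of the covered length in D4 replicates 1 and 2. The split was set after the values were seen and places that peak inside the stretch. No change of distribution from D2 to D4 is read from it. In the remaining 275 kb toward Opa1, the D4 lists covered 1.74% and 2.08%, and the D2 lists 100% and 96.5%.

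In covered length, the window had 440 and 426 kb at D2 and 34.4 and 27.8 kb at D4. The means were 433 ± 10.2 kb and 31.1 ± 4.66 kb (SD, n = 2 each), or 98.4% and 7.06% of the window. This is a 13.9-fold higher mean at D2, and within replicates 1 and 2 the ratio was 12.8 and 15.3. The labels tie D2 and D4 libraries by number only and do not say that they were matched. No test was made, because the window was chosen on its D2 length, which also fixes much of this difference. An exact two-sided permutation test of 2 libraries against 2 could in any case not give a p below 0.333.

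The lists as a whole differed in the same direction. Over all autosomes the D2 lists covered 9.79 times the length of the D4 lists (9.58 and 10.1 times within replicates 1 and 2), and over chromosome 16 they covered 19.4 times. The ratio of the window lay between these. Sequencing depth is unknown for all libraries, and its part in the ratio was not tested. Every list was also reduced to its 326 peaks of highest −log10 q, the number in the shortest list. The D2 mean was then 420.1 kb, the D4 mean 21.4 kb and the ratio 19.6. Equal numbers do not make equal lengths. The long D2 peaks were kept whole at this cut, while weaker D4 peaks of the window were dropped. The ratio thus still rests on the D2 length that chose the window, and it does not test depth.

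The contrast ended under a stricter threshold. When a −log10 q of at least 3 was required, neither D2 list called anything in the window, since its long peaks reached 2.93 and 2.87. Few D2 peaks anywhere passed, 153 of 8227 in replicate 1 and 95 of 7544 in replicate 2, and of the peaks of at least 100 kb 8 of 75 and 6 of 42 did. D4 replicate 1, where 20 of 1553 peaks passed, kept its 19.9-kb Hes1 peak, and D4 replicate 2 called nothing. With a fold enrichment of at least 3, D2 replicate 1 called 0 kb, as its peak had 2.99, while D2 replicate 2 kept 409 kb, and the ratio of the means was 9.54. Each deposited peak carries 1 value for its whole length, whether that is 615 kb or 0.896 kb. By −log10 q the long D2 peaks of the window ranked 169 of 8227 in replicate 1 and 119 of 7544 in replicate 2. By fold enrichment they ranked 371 and 226. Long D2 peaks in general had a higher −log10 q. Its median was 1.97 and 1.94 for peaks of at least 100 kb in D2 replicates 1 and 2, against 1.58 and 1.54 over all peaks.

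**Figure D2:**
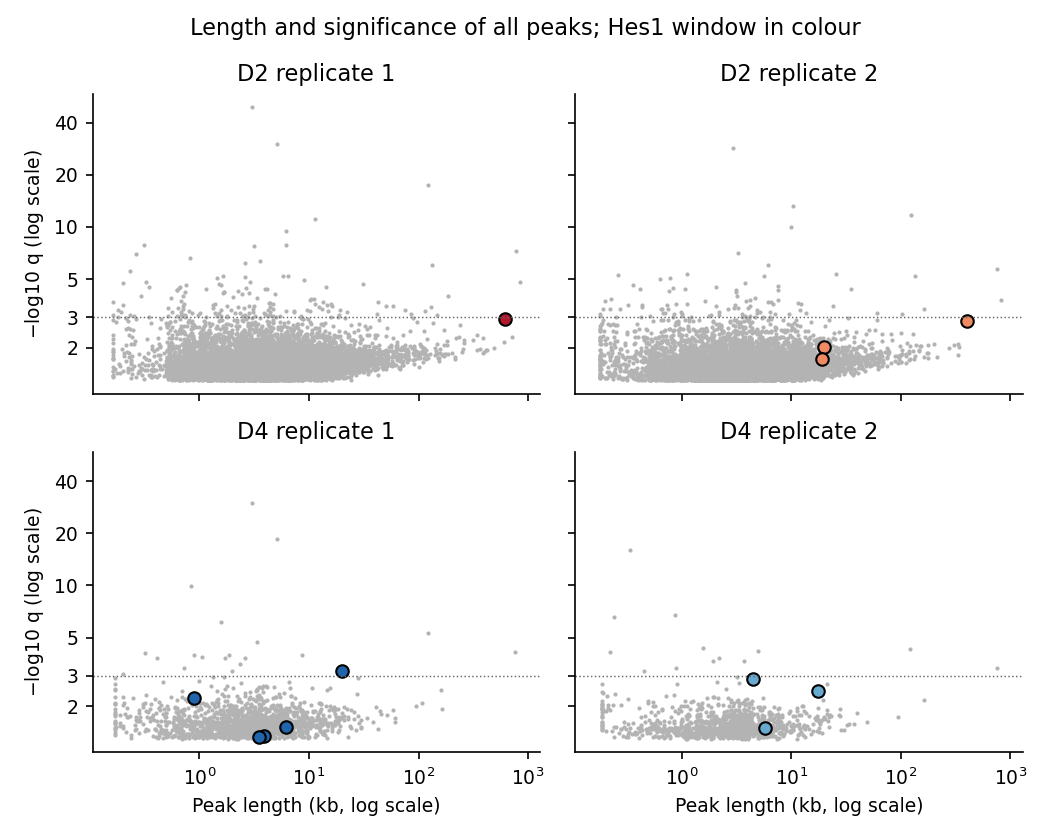
Length in kb against −log10 q for every peak of the 4 EpiLC lists (grey, both axes logarithmic), with the peaks of the Hes1 window in colour and a dotted line at a −log10 q of 3. The long D2 peaks sit just under the line at 2.93 and 2.87, and the D4 replicate 1 peak on Hes1 sits just above it at 3.20.

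By length the domain stood near the top of both D2 lists, which hold autosomal peaks only. The 615-kb peak ranked 4 of 8227 in replicate 1, after 2 peaks on chromosome 6 (845 and 768 kb) and 1 on chromosome 7 (708 kb). The 400.3-kb peak ranked 3 of 7544 in replicate 2, after the chromosome 6 peaks of 824 and 761 kb. With peaks joined over gaps of up to 10 kb, the ranks became 7 and 6. The window made up 14.2% and 17.7% of all length called on chromosome 16 in D2 replicates 1 and 2. In D4 replicates 1 and 2 it made up 19.1% and 26.9%.

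To set the window beside the rest of the autosomes, these were tiled into 5266 other windows of the same length. Of these, 29.5% and 28% held a peak in D2 replicates 1 and 2, 9.4% and 7.92% in D4 replicates 1 and 2, 4.5% in female MEFs and 5.66% in male MEFs. Both D4 lists called a peak in 5.37%. In D2 replicate 1 the Hes1 window was covered whole and tied with the highest of them, and in D2 replicate 2 it had rank 3, which its choice largely fixed. It ranked 52 in D4 replicate 1 and 39 in D4 replicate 2, where the median over windows with any call was 3.65 and 3.53 kb. D4 calls in the window were therefore above those of most called windows, without being among the most extensive, which reached 440 kb. The D4 ranks are not free of the choice of the window either. The other windows were laid at fixed steps and can cut a called stretch, whereas the Hes1 window was drawn around one.

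**Figure D3:**
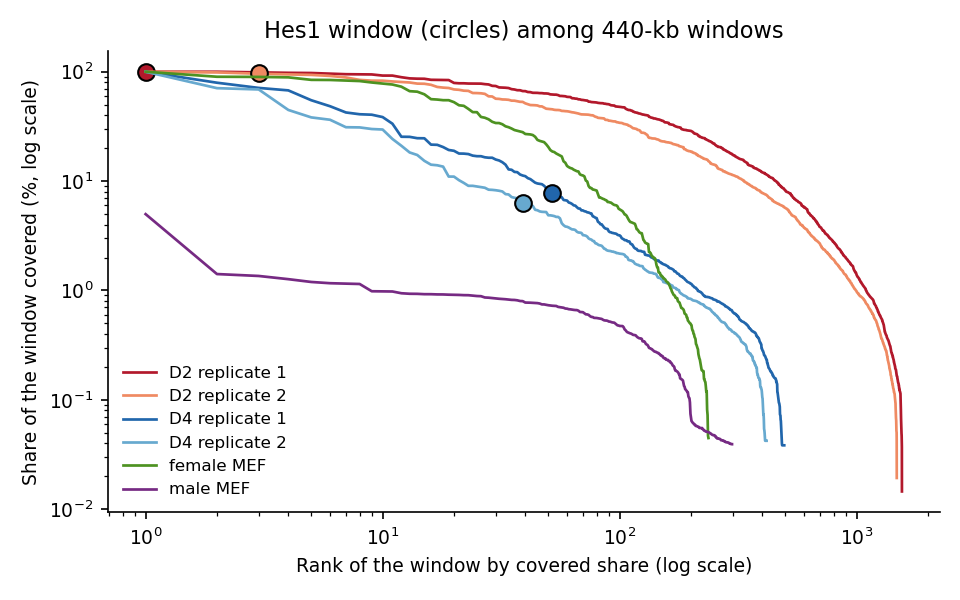
Share of each 440-kb window covered by peaks, in percent, against its rank in the list (both axes logarithmic, 1 line for each of the 6 lists); circles mark the Hes1 window in the D2 and D4 lists. The D2 circles lie at 100% (rank 1, tied) and 96.7% (rank 3), and the D4 circles lie at 7.81% and 6.31%, at ranks 52 and 39.

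Among long D2 regions, the share of the Hes1 region that was called again at D4 was ordinary. The consensus of the D2 lists held 36 other regions of at least 100 kb, among them the continuing stretch above the window. Of these, 80.6% had a peak in D4 replicate 1 and 72.2% in D4 replicate 2. The long Hes1 segment, chr16:29708122-30108401, was covered to 8.59% in D4 replicate 1, against a median of 18.6% and a range of 0 to 100.0% for the others, and 23 of the 36 were covered to a larger share. In D4 replicate 2 it was covered to 6.94%, against a median of 6.64% and a highest value of 99.1%, with 18 above it. By the part called in both D4 lists it had 4.98% against a median of 1.39%, with 15 above it. It ranked 3 of 37 regions by length and stood near the middle of them in what D4 kept.

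**Figure D4:**
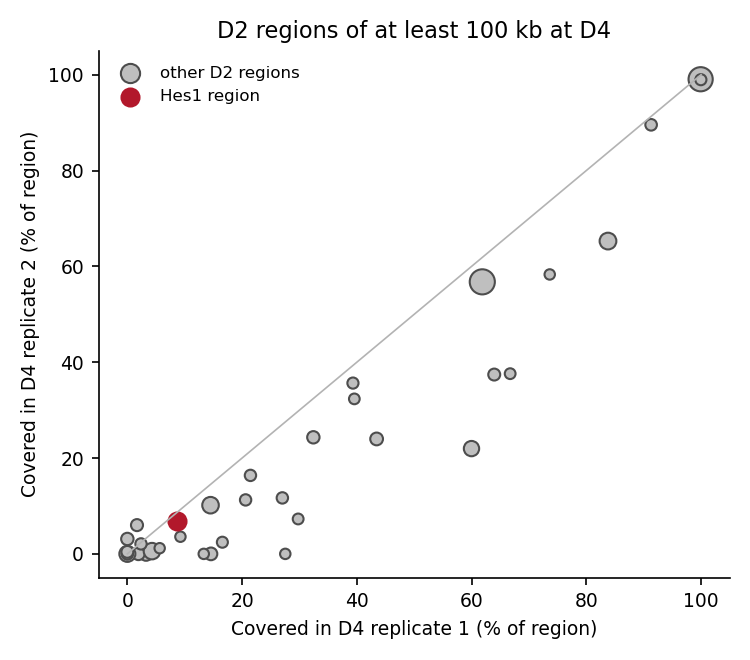
Share of each D2 consensus region of at least 100 kb covered in D4 replicate 1 (x axis) and D4 replicate 2 (y axis), in percent; 1 circle is 1 region, its area grows with length, and the line marks equal shares. The Hes1 region, at 8.59% and 6.94%, lies close to the line among the regions of low share.

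In fibroblasts no peak was called in the window. The female MEF list had no peak on chromosome 16 between 9373193 and 78990381, so its nearest calls to the window were 20317 and 48860 kb away. Since 4.5% of windows had a female MEF peak at all, an empty window was the common case. Of the 36 other long D2 regions, 27.8% had a female MEF peak and 26 had none, so the Hes1 region stood with the larger group. The male MEF list called a single short peak near by, at chr16:30269705-30269913 (0.209 kb, fold enrichment 2.84), 140 kb above the window. It lay under the 615-kb peak of D2 replicate 1 and under the 146-kb peak of D2 replicate 2, so background of the pulldown in fibroblasts was called once beneath the D2 stretch and not within the window. That peak had the lowest fold enrichment in the male list. Of the 36 other long D2 regions, 19.4% overlapped a male peak. These 36 include the 146-kb peak of the continuing stretch with its male peak, and without it 6 of 35 overlapped one.

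D4 replicate 2 called a few peaks beside the window as well. Those nearest to it were at chr16:29679422-29684541 (5.12 kb, fold enrichment 2.80) just below it, and at chr16:30189265-30189450 (0.186 kb, 3.13) and chr16:30239046-30239476 (0.431 kb, 2.73) above it. These 3 also lay under called D2 peaks of both replicates. Another peak of D4 replicate 2 lay farther below, at −558 to −556 kb relative to the Hes1 position (1.85 kb, fold enrichment 2.87). No D2 peak of either replicate lay over it. D4 replicate 1 called nothing within 1 Mb of the window on either side, and its nearest peaks lay 5701 kb below and 3980 kb above. Its 5 calls in the window were thus an island on the chromosome.

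The 3 long D2 regions most like the Hes1 region were found by the mean absolute difference in covered share over the 2 D4 and the 2 MEF lists. They were chr9:119900472-120003119 (103 kb), at a mean difference of 1.01 percentage points, chr9:50244374-50396359 (152 kb), at 1.96, and chr11:87457287-87558327 (101 kb), at 2.18. The first was covered to 9.25% and 3.58% in D4 replicates 1 and 2, the second to 1.68% and 6.002% and the third to 5.63% and 1.18%. None of the 3 had a MEF peak. All were 152 kb or shorter. The next in this order, at 2.30 percentage points, was longer, at chr1:135555928-135887388 (331 kb), and was covered to 14.5% and 10.2% in D4 replicates 1 and 2; it was looked at after its values were seen.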

How the data were processed

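The 6 deposited autosomal peak lists of Xist pulldowns, 1 per library, were grouped by the sample titles. Build mm9 and the tools MACS2 2.2.7.1, Bowtie2 2.2.9, Trim Galore 0.4.1, bedtools 2.26.0, Picard and SAMtools 1.9 are named, per the submitters' processing notes. Neither settings nor the input behind each list are given in the sources used here. The authors' lists hold, per peak, the fold enrichment (a linear ratio), the deposited −log10 p and the deposited −log10 q. Starts were made 1-based. Depth is unknown, so no counting interval is given.

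The window and the Hes1 position come from the definition of the region, and members and lists were chosen with earlier results of these data known. Covered length is the merged length of peaks inside the window. A consensus is what both lists of a day cover. All peaks overlapping the window were named, with the nearest outside. Functions were tested on simulated intervals. Python 3.11.15, NumPy 2.4.6 and pandas 2.3.3 were used. Alternatives were stricter thresholds, lists of equal number, joined gaps and leaving out each replicate. Genes other than Hes1 and its neighbours, and promoters, were not analysed here.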

Additional observations from a re-analysis of the deposited data

How the results depend on the processing

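The MEF values were 0 kb under every setting, which none of these settings could have changed. The D2 mean stayed above the D4 mean except at a −log10 q of at least 3, and with a fold enrichment of at least 3 D2 replicate 1 alone, at 0 kb, lay below both D4 lists (20.8 and 22.1 kb). At a −log10 q of at least 3 the D2 mean was 0 kb, the D4 mean 9.94 kb and the ratio 0, and neither the D2 nor the D4 lists shared any length (0 kb). At a −log10 q of at least 2 the D2-to-D4 ratio was 19.8, the D4 mean 21.4 kb and the length called in both D2 lists 409 kb. Requiring a fold enrichment of 3 gave a D2 mean of 204 kb, a D4 mean of 21.4 kb and a ratio of 9.54. The length shared by the D2 lists was then 0 kb, since only D2 replicate 2 kept any, at 409 kb. With lists of equal number the D2 mean was 420.1 kb, the D4 mean 21.4 kb, the ratio 19.6 and the length in both D2 lists 400.3 kb. With gaps of up to 10 kb joined the length in both D2 lists was 440 kb.

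The rank by length of the longest peak was 3 in D2 replicate 1 with lists of equal number, and 7 and 6 in D2 replicates 1 and 2 with joined gaps. In D4 replicates 1 and 2 it was 8 and 7 at a −log10 q of at least 2, 10 and 12 with a fold enrichment of at least 3, 17 and 24 with lists of equal number and 108 and 74 with joined gaps. At a −log10 q of at least 3 it was 3 in D4 replicate 1. Shorter lists have fewer peaks to rank. Leaving out 1 replicate gave D2 values of 426 to 440 kb, D4 values of 27.8 to 34.4 kb and ratios of 12.6 to 15.6.

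No paired analysis was possible because the values come from no test, and the labels tie D2 and D4 libraries by number only. Within replicate numbers 1 and 2 the ratio was 12.8 and 15.3. Gene bodies were not compared with peaks, since no annotation of mm9 was used here. Depth limits how much a list can call, and an empty window in a MEF list does not show that Xist was absent there.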
